A study of Mus musculus with 17 samples.

Results

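The members are the protein-coding genes of the mitochondrial genome together with the nuclear genes whose symbols name complex I subunits, 53 of the 31517 genes with counts. They were taken by annotation alone (GENCODE M21, build GRCm38): 13 protein-coding genes of chromosome M, whose symbols begin with mt-, and 40 nuclear genes whose symbol is Nduf, then a, b, c, s or v, then a digit. The nuclear 40 comprise 7 core subunits, 28 accessory subunits, Ndufa4 and Ndufa4l2, which the symbol rule takes in, and the pseudogenes Ndufa11b, Ndufb4c and Ndufs6b. Ndufa11b and Ndufs6b had at most 0.0275 CPM in every deep library and were not tested, so 51 members were, 13 mitochondrial and 38 nuclear. One further symbol that meets the rule, Ndufb1-ps, was not analysed here.

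RNA was extracted from whole cerebella of C57BL/6 mice at postnatal day 3, after the meninges had been taken off, and sequenced as stranded libraries of poly-A selected RNA. All mice carried Math1-Cre, which drives recombination in granule neuron progenitors, and the neurons they form inherit the deleted alleles. Cerebellar cells that neither had Cre nor descend from cells that had it keep every loxP-flanked allele. The Atr, Bax and Bak deleted group (5 samples) had Atr-loxP/loxP with Bax-loxP/loxP and was null for Bak in every cell, and its controls, the Bax and Bak deleted group (4 samples), had Bax-loxP/loxP and the same Bak null. The Atr and p53 deleted group (5 samples) had Atr-loxP/loxP with p53-loxP/loxP, and its controls, the p53 deleted group (3 samples), had p53-loxP/loxP. The titles give replicates 1 and 3 of the Atr and p53 deleted samples the same number, with a suffix on replicate 3, and do not say whether both came from 1 mouse. No sample had intact alleles at all of these genes, so each comparison describes Atr-loxP/loxP on top of another deletion. Atr encodes a kinase that responds to stalled replication forks, Bax and Bak proteins that open the outer mitochondrial membrane in apoptosis, and p53 a transcription factor activated by DNA damage.

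The respiratory chain is built from both genomes of the cell. Mitochondrial DNA is transcribed into long precursors that are cut into single messages, which encode subunits of complex I (mt-Nd genes), complex III (mt-Cytb), complex IV (mt-Co genes) and ATP synthase (mt-Atp genes). All other subunits, including most of complex I, the NADH dehydrogenase that feeds electrons into the chain, are made from nuclear genes and imported. Copies of mitochondrial DNA inserted into nuclear chromosomes, and processed pseudogenes of nuclear subunits, share sequence with these genes, and a program that divides reads among transcripts has to split the shared reads between them.

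The sequences below show how little separates 3 members from a copy that received counts in these files, because several results depend on that split. Each member is followed by its copy, 5′ to 3′, and the capitals mark the bases at which the pair differs in the stretch shown (GENCODE M21, GRCm38). The mt-Co1 window is chrM:6390-6434 on the plus strand and its copy Gm29216 is chr1:24616144-24616188 on the minus strand.
mt-Co1: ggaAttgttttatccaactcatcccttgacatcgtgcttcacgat
Gm29216: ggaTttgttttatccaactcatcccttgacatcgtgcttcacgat
The mt-Nd3 window is chrM:9459-9518 on the plus strand and its copy Gm28438 is chr1:24613060-24613119 on the minus strand.
mt-Nd3: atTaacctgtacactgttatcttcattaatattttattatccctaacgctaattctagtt
Gm28438: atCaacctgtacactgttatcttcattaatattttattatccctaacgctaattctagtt
The Ndufs5 stretch is bases 326 to 355 of its transcript from the minus strand of chromosome 4, and its copy BC002163 is chr16:42955709-42955738 on the plus strand.
Ndufs5: taTaagaacgccgctcggtgccacgcAttt
BC002163: taCaagaacgccgctcggtgccacgcGttt
With positions counted from 1 at the 5′ end of the member's transcript, the difference in mt-Co1 was A1066T, the only one in 483 aligned bases. In mt-Nd3 it was T3C, after which 342 of 342 aligned bases were identical. Ndufs5 and BC002163 differed by T328C and A352G, with 317 of 319 aligned bases identical. The chromosome 1 copies of mt-Atp6 (Gm10925, 678 bases), mt-Co2 (Gm28661, 681 bases), mt-Co3 (Gm28437, 783 bases), mt-Nd4 (Gm28439, 876 bases) and mt-Nd4l (Gm10222, 294 bases) had no substitution over their aligned lengths. Ndufb4 and the pseudogene Ndufb4c were identical over all 390 aligned bases, so their counts are uncertain one against the other.

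The 16 deep libraries held 42987953 to 100659645 estimated counts, and the remaining one, Atr and p53 deleted replicate 3, held 13601 and was left out. Atr and p53 deleted replicate 2 stood apart in the members (below), and results that it moves are given with and without it. It was singled out for its mitochondrial level and also stood apart in some nuclear members. The p-values of members in both genomes without it are therefore not independent of that choice. Summed over whole genes, Atr had 40.0 ± 3.07 CPM in Atr, Bax and Bak deleted cerebella and 43.4 ± 3.99 CPM in Bax and Bak deleted cerebella (SD, n = 5 and 4), and 37.1 ± 2.83 CPM in Atr and p53 deleted cerebella against 37.0 ± 1.11 CPM in p53 deleted cerebella (SD, n = 4 and 3). Counts over a whole gene in whole tissue include bases outside the deleted part and cells without Cre, so these levels do not check the labels for Atr. Bak1, the gene of Bak, was at 0.435 and 0.365 CPM in the groups labelled Bak null, Atr, Bax and Bak deleted first, and at 38.3 and 39.6 CPM in the Atr and p53 deleted and the p53 deleted groups. The labels do not say whether samples of a group came from separate litters, so p-values measure the spread between these samples.

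Per length, the median mitochondrial message was far more abundant than the median nuclear one in all 4 groups. In Atr, Bax and Bak deleted cerebella the 13 mitochondrial genes had a median of 7404 TPM, between 3085 for mt-Nd6 and 13804 for mt-Co1, and the 37 nuclear protein-coding members a median of 175 TPM, between 10.5 for Ndufa4l2 and 616 for Ndufa4. In Bax and Bak deleted cerebella these medians were 3957 and 176 TPM. In Atr and p53 deleted cerebella they were 6689 and 221 TPM with replicate 2 and 4146 and 209 TPM without it, and in p53 deleted cerebella 3139 and 219 TPM. The lowest mitochondrial and the highest nuclear level did not overlap in Atr, Bax and Bak deleted or in Bax and Bak deleted cerebella, where mt-Nd6 had 3085 and 1521 TPM and Ndufa4 616 and 714 TPM. They did in the p53 deleted background, where mt-Nd3, which shares its reads with a copy, had 766 TPM in Atr and p53 deleted (567 without replicate 2) and 383 TPM in p53 deleted cerebella, below Ndufa4 at 923 (813 without replicate 2) and 912 TPM. Messages of complex IV led the order in every group, mt-Co1 in Atr, Bax and Bak deleted cerebella and mt-Co3 in the others. In p53 deleted libraries the copy of mt-Co1 took 11.7 to 12.9% of its pair's counts and that of mt-Co3 at most 0.287%. The order of mt-Co1 and mt-Co3 in that group may therefore depend on the split. The mean levels per length of the leading 4, mt-Co1, mt-Co3, mt-Co2 and mt-Atp6, lay between 13210 and 13804 TPM in Atr, Bax and Bak deleted cerebella, closer together than their SDs of 873 to 1094 TPM. Among nuclear members Ndufa4, a subunit first assigned to complex I and later found in complex IV, was highest in all 4 groups. Its relative Ndufa4l2, a hypoxia-induced gene in many cells, was lowest among the protein-coding nuclear members in all 4 groups.

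The mitochondrial genes took a larger share of all gene counts in Atr, Bax and Bak deleted than in Bax and Bak deleted cerebella. They held 4.14, 3.63, 3.97, 4.35 and 3.53% of counts in Atr, Bax and Bak deleted cerebella, against 2.17, 2.55, 2.29 and 1.81% in Bax and Bak deleted cerebella. The groups did not overlap, and the means were 3.93 ± 0.343% and 2.20 ± 0.309% (SD, n = 5 and 4). The nuclear members held 0.255 ± 0.00731% in Atr, Bax and Bak deleted and 0.270 ± 0.0119% in Bax and Bak deleted cerebella. On the log2 scale, the ratio of summed mitochondrial to summed nuclear complex I counts was 2.30 ± 0.13 in Atr, Bax and Bak deleted and 1.31 ± 0.28 in Bax and Bak deleted cerebella. These shares and ratios are sums over the members and carry no test.

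**Figure D1:**
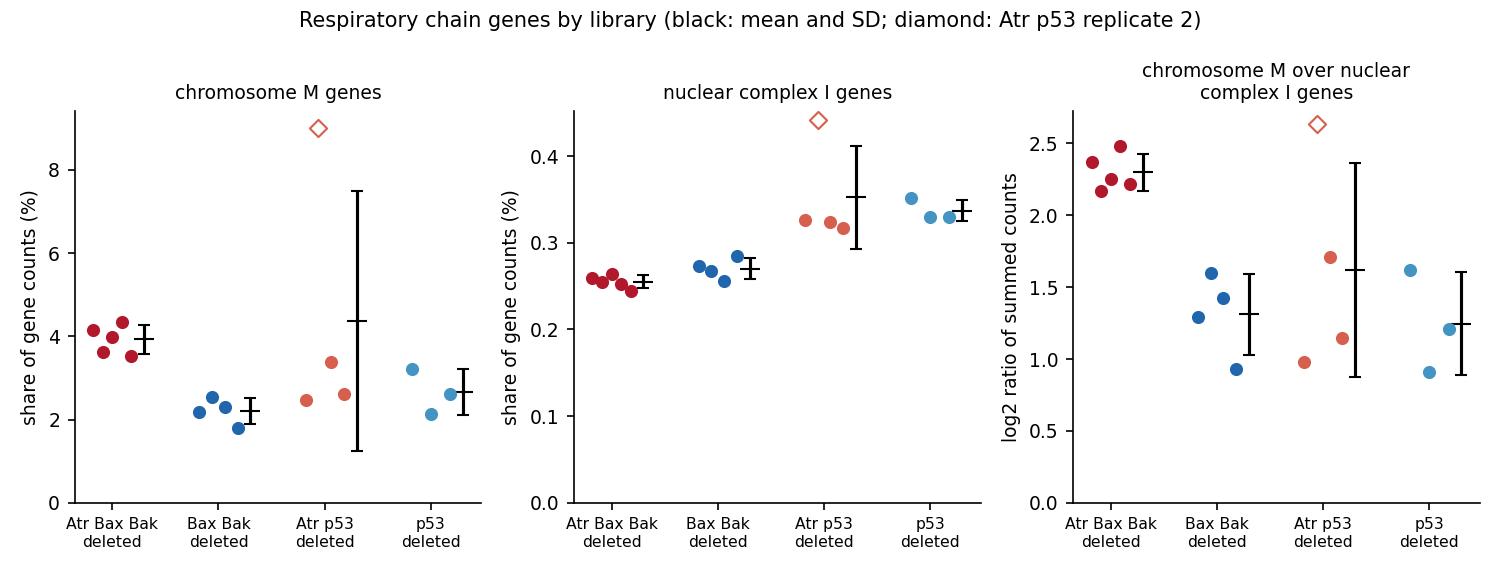
Share of gene counts held by the chromosome M protein-coding genes and by the nuclear complex I members (percent), and the log2 ratio of mitochondrial to nuclear complex I counts, in each deep library (points) with the group mean and SD. The 5 Atr, Bax and Bak deleted libraries hold 3.53 to 4.35% mitochondrial counts, all above the Bax and Bak deleted libraries at 1.81 to 2.55%, and Atr and p53 deleted replicate 2 stands at 9.01%.

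Single mitochondrial genes followed the sum with 1 exception. Of the 13, 12 were higher in Atr, Bax and Bak deleted than in Bax and Bak deleted cerebella at an adjusted p below 0.05 (edgeR quasi-likelihood test, Benjamini-Hochberg over 17425 genes), and the same 12 did not overlap between the groups. Of the 40 nuclear members 12 did not overlap either, all of them lower. Overlap was counted for the members only, so the share of all genes without overlap is not known. In that comparison 44.5% of all tested genes were called, 22.5% higher and 22.0% lower, and the median log2 fold change was 0.85 over the 13 genes and 0.04 over all genes. In whole tissue, a change in the number of cells of a type and a change in RNA per cell cannot be told apart.

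The mitochondrial complex I genes, which encode the membrane core of the enzyme, spanned both the largest and the smallest of these differences. For mt-Nd4l, counts were 497, 401, 505, 539 and 416 CPM in Atr, Bax and Bak deleted cerebella, against 224, 283, 239 and 199 CPM in Bax and Bak deleted cerebella. Every Atr, Bax and Bak deleted library was above every control, and the log2 fold change was 1.02 ± 0.12 (SE; edgeR, Benjamini-Hochberg adjusted p = 8.21e-05). mt-Nd5 had 2592, 2226, 2522, 2848 and 2321 CPM in Atr, Bax and Bak deleted cerebella, against 1204, 1573, 1276 and 1006 CPM in Bax and Bak deleted cerebella. It too was apart in all libraries, with a 2.00-fold difference (SE 0.12 on the log2 scale). The log2 fold changes of mt-Nd4, mt-Nd1 and mt-Nd2 were 0.96 ± 0.12, 0.81 ± 0.10 and 0.80 ± 0.11.

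mt-Nd6, the single protein-coding gene on the other strand of the mitochondrial genome (chrM:13552-14070), had 689, 627, 691, 798 and 649.7 CPM in Atr, Bax and Bak deleted cerebella. In Bax and Bak deleted cerebella it had 316, 447, 361 and 287 CPM. Its log2 fold change of 0.99 ± 0.12 was within 1 SE of that of mt-Nd5 on the opposite strand. Whether the authors' counting used strand is not given in the sources used here, so reads from mt-Nd6 and from the precursor opposite it may not be separated.

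mt-Nd3 was the mitochondrial gene that did not pass. It had 483, 466, 483, 556 and 401 CPM in Atr, Bax and Bak deleted cerebella, against 467, 515, 442 and 363 CPM in Bax and Bak deleted cerebella. The groups overlapped, with a log2 fold change of 0.11 ± 0.11 (edgeR, Benjamini-Hochberg adjusted p = 0.415). Adding the counts of its chromosome 1 copy left it at 0.07 ± 0.09 (adjusted p = 0.553). It lies at chrM:9459-9806 between mt-Co3 (chrM:8607-9390), which had the smallest difference among the 12 that passed, and mt-Nd4l (chrM:9877-10173), which had the largest. Whether the fold change of mt-Nd3 differs from those of its neighbours was not tested.

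Complex IV, complex III and ATP synthase genes of the mitochondrial genome rose together. mt-Co1, the catalytic subunit of complex IV, had 9401, 8699.6, 9298, 10261 and 8345 CPM in Atr, Bax and Bak deleted cerebella, against 4977, 6014, 5502 and 4226 CPM in Bax and Bak deleted cerebella. That is a 1.80-fold difference with no overlap (log2 fold change 0.85 ± 0.10; edgeR, Benjamini-Hochberg adjusted p = 5.9e-05). mt-Co3 had 4768, 4292, 4765, 5202 and 4191 CPM in Atr, Bax and Bak deleted cerebella and 3337, 3632, 3358 and 2916 CPM in Bax and Bak deleted cerebella, a log2 fold change of 0.51 ± 0.08. The log2 fold change of mt-Co2 was 0.84 ± 0.11, that of mt-Cytb, the mitochondrial subunit of complex III, 0.87 ± 0.11, and those of mt-Atp8 and mt-Atp6 in ATP synthase 0.90 ± 0.11 and 0.80 ± 0.10. mt-Atp8 and mt-Atp6 overlap on the genome (chrM:7766-7969 and chrM:7927-8607), so counts within this pair are not independent. mt-Nd4l and mt-Nd4 overlap too (chrM:9877-10173 and chrM:10167-11544), by fewer bases than the 31-base words used here to find shared sequence.

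**Figure D2:**
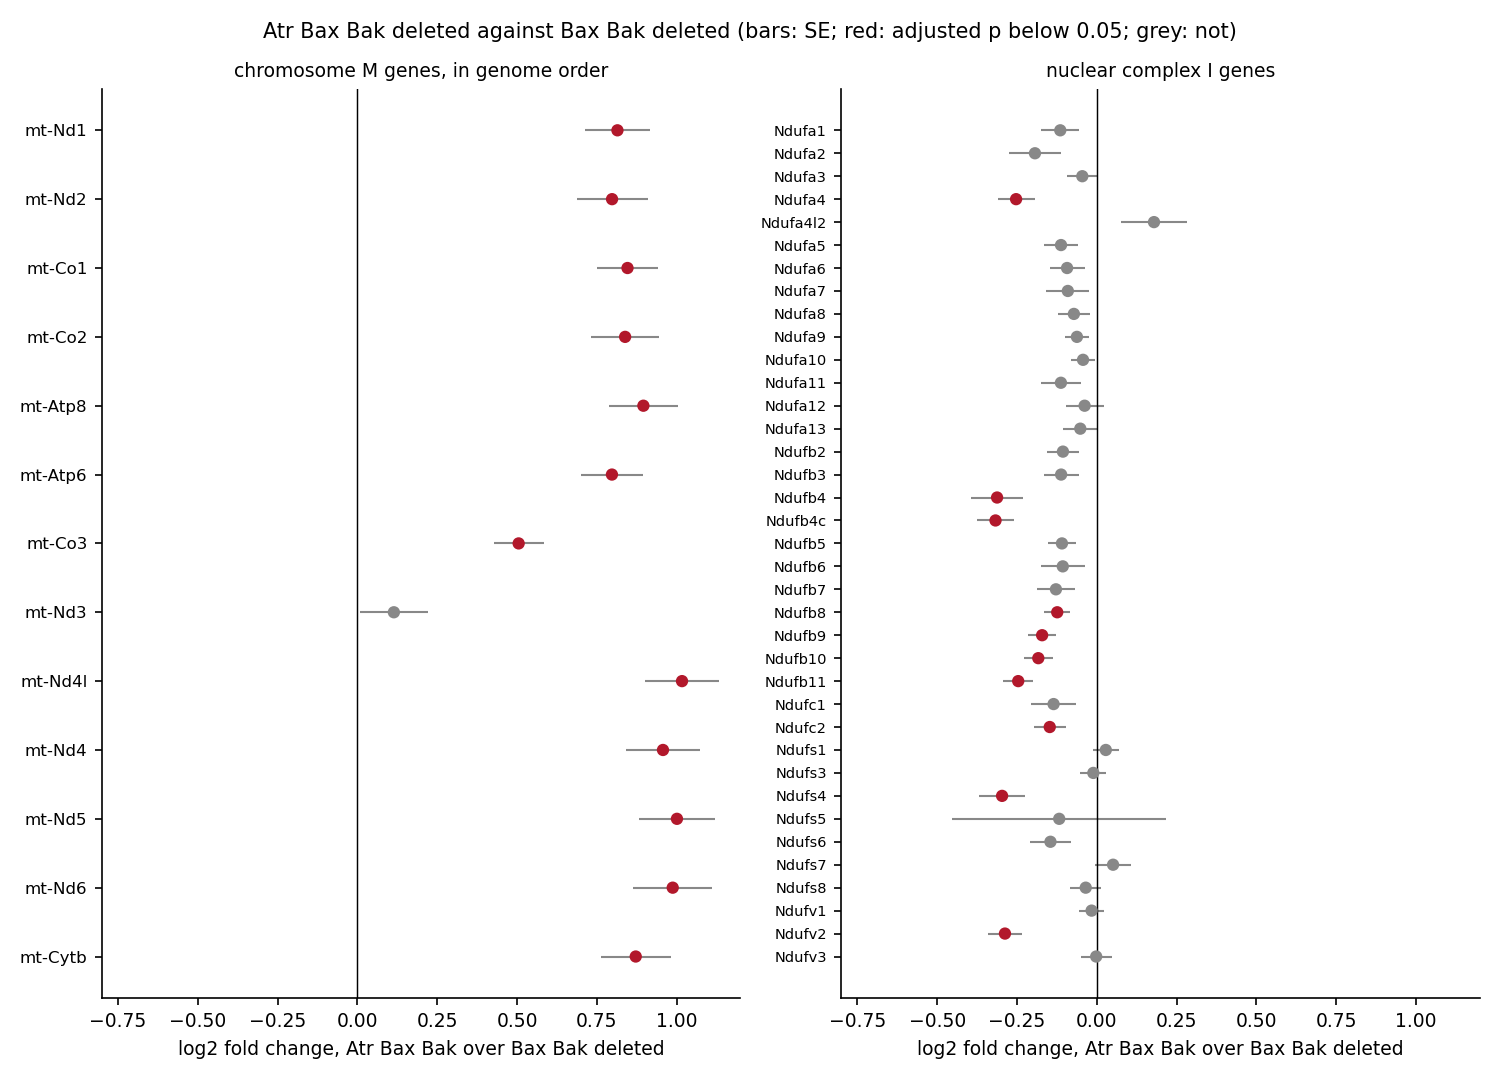
Log2 fold change (Atr, Bax and Bak deleted over Bax and Bak deleted, edgeR) of the tested members with its SE, 1 nuclear member not being shown; the 13 chromosome M genes are in genome order, red points passed an adjusted p of 0.05 and grey ones did not. The 12 mitochondrial genes that passed lie between 0.51 and 1.02, mt-Nd3 lies at 0.11, and the nuclear members shown lie between -0.32 and 0.18.

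None of the nuclear members rose in the same comparison, and 10 of 38 fell, a share close to the 22.0% of all tested genes that fell. The members' median log2 fold change was -0.11, beside 0.04 over all genes, and 35 of 38 were below 0. The values varied with transcript length. Nuclear members under 1000 bases had a median of -0.11 (28 genes) and longer ones of -0.05 (10 genes). Over all genes the medians were -0.13 under 1000 bases and 0.04 from 4000 bases up. The part of transcript length in the nuclear members' fall was not tested. By role, 1 of 7 core subunits fell (median -0.02), and 7 of 28 accessory subunits did (median -0.11), with Ndufa4 and the pseudogene Ndufb4c making up the 10. Ndufv2, a core subunit that carries an iron-sulfur cluster, had 103, 108, 109.8, 107 and 95.5 CPM in Atr, Bax and Bak deleted cerebella, against 129, 131, 119.6 and 137 CPM in Bax and Bak deleted cerebella. The groups were apart, with a log2 fold change of -0.29 ± 0.05 (edgeR, Benjamini-Hochberg adjusted p = 0.00119). Of the core subunits that did not pass, Ndufs7 had a log2 fold change of 0.05, and Ndufs1, the largest subunit, had 146 to 161 CPM in Atr, Bax and Bak deleted and 147 to 158 CPM in Bax and Bak deleted cerebella.

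Ndufb11, an accessory subunit of the membrane arm, had 77.2, 78.3, 81.4, 83.8 and 72.7 CPM in Atr, Bax and Bak deleted cerebella, against 95.2, 91.3, 92.3 and 98.7 CPM in Bax and Bak deleted cerebella. Its log2 fold change was -0.25 ± 0.05 (edgeR, Benjamini-Hochberg adjusted p = 0.00145), without overlap. Ndufa4 had 161, 154, 168, 159.9 and 142 CPM in Atr, Bax and Bak deleted cerebella, against 190.1, 182, 179 and 206 CPM in Bax and Bak deleted cerebella, and fell by 0.25 ± 0.06 on the log2 scale (adjusted p = 0.00453). Ndufs4, an accessory subunit whose loss causes an encephalopathy in mice, fell by 0.30 ± 0.07. Ndufb10, Ndufb9, Ndufc2 and Ndufb8, accessory subunits of the membrane arm, fell by 0.12 to 0.18. Ndufa4l2, at 3.97 to 4.44 CPM in Atr, Bax and Bak deleted and 3.33 to 4.04 CPM in Bax and Bak deleted cerebella, had a log2 fold change of 0.18 ± 0.10 that did not pass.

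Ndufb4 and its copy Ndufb4c fell by 0.31 ± 0.08 and 0.32 ± 0.06 on the log2 scale. Ndufb4c received 72.9 to 74.8% of the pair's counts in Atr, Bax and Bak deleted libraries and 73.1 to 75.4% in Bax and Bak deleted libraries. The split was nearly constant, so the fall is that of the pair. The promoter of Ndufb4 is shown because it holds, 3 times and without overlap between matches, the letters GCGC, then any base, then TGCGC, searched on both strands as a core of the site of NRF1, a regulator of nuclear respiratory genes (RefSeq sequence, GRCm38.p6, chr16:37654319-37654618, minus strand). The capitals mark the matches, all on the strand opposite to the one printed, and the start site lies 50 bases before the end of the window.
Ndufb4: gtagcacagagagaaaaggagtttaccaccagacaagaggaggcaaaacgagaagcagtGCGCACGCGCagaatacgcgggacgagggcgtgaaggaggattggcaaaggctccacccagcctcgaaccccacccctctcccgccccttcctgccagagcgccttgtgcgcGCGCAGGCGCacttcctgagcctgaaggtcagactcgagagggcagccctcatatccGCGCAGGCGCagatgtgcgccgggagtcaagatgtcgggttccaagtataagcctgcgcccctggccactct
Of the 32 member genes with a promoter in the RefSeq table, 7 held such a match: Ndufa11, Ndufa5, Ndufa6, Ndufa8, Ndufb4, Ndufs5 and Ndufs6. Counted over promoters, 8 of 34 member promoters held it, or 23.5%, against 4.60% of all 32851 promoters of the same length. The version with A in the open position stood in 1 member promoter, that of Ndufa11, and in 0.971% of all promoters. The letters CCGGAAG, a core of the site of the ETS family that includes Gabpa, stood in 4 member promoters (Ndufb6, Ndufb7, Ndufs3 and Ndufs8), 11.8% against 8.86% of all. A match is a description of the letters and not a site in use.

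In the rest of the chain, more nuclear genes fell than rose in Atr, Bax and Bak deleted against Bax and Bak deleted cerebella. Of all tested genes 22.0% fell and 22.5% rose there. The median over all genes under 1000 bases was -0.13, and the part of transcript length in these lists was not tested. In complex II 1 of 4 fell (Sdhd, -0.20 ± 0.04), and in complex III with cytochrome c 5 of 10 (Uqcrc2, -0.25 ± 0.03), with none higher in either. Of the nuclear complex IV genes 6 of 11 fell (Cox7c, -0.33 ± 0.05), and of the nuclear ATP synthase genes 11 of 16 (Atp5j, -0.33 ± 0.04) while Atp5g1, which encodes the c subunit of the rotor, rose by 0.28 ± 0.09. The mitochondrial ribosome, which translates the 13 mitochondrial messages, had 48 of 78 genes lower and none higher, with a median of -0.20. Mrpl50 had 47.9 ± 1.86 CPM in Atr, Bax and Bak deleted and 63.9 ± 1.91 CPM in Bax and Bak deleted cerebella (SD, n = 5 and 4).

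Of the genes that keep, transcribe and process the mitochondrial genome more fell than rose, while 12 of its own messages were higher. Among 23 genes of mitochondrial DNA maintenance and transcription 11 fell and 3 rose, beside 22.0% and 22.5% of all tested genes. Tfam, which packages mitochondrial DNA and starts its transcription, had 42.7 ± 2.79 CPM in Atr, Bax and Bak deleted and 55.6 ± 1.95 CPM in Bax and Bak deleted cerebella (log2 fold change -0.36 ± 0.05), and Slc25a36, a mitochondrial nucleotide carrier, rose by 0.39 ± 0.05. Of 18 genes of mitochondrial RNA stability and processing 9 fell and 1, Fastk, rose by 0.41 ± 0.07, and Grsf1, a protein of mitochondrial RNA granules, fell by 0.27 ± 0.04. The regulators of biogenesis were split, 4 higher and 4 lower of 11, with Esrra at 0.35 ± 0.06 and Nrf1 at -0.47 ± 0.06. Of the complex I assembly genes 1 of 17 rose (Dmac2, 0.27 ± 0.06) and 4 fell (Dmac1, -0.33 ± 0.06). The share of assembly genes that fell was close to the 22.0% of all tested genes.

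Of 13 genes of mitophagy and mitochondrial dynamics, 2 rose and 5 fell, beside 22.5% and 22.0% of all tested genes. Pink1, the kinase that marks damaged mitochondria, rose by 0.27 ± 0.05, and Bnip3l, a mitophagy receptor, had 147 ± 8.02 CPM in Atr, Bax and Bak deleted and 219 ± 11.7 CPM in Bax and Bak deleted cerebella (-0.56 ± 0.05; edgeR, Benjamini-Hochberg adjusted p = 1.73e-05). Of 20 glycolysis genes 10 rose and none fell, with a median log2 fold change of 0.21. Eno2, the enolase of mature neurons, had 142 ± 15.6 CPM in Atr, Bax and Bak deleted and 90.3 ± 1.80 CPM in Bax and Bak deleted cerebella.

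Markers of cerebellar cell types differed between the same groups, where 22.5% of all tested genes were higher and 22.0% lower. Summed markers of granule progenitors were at 1323 to 1499 CPM in Atr, Bax and Bak deleted against 1767 to 2281 CPM in Bax and Bak deleted libraries, with 5 of 6 lower and 1, Gli1, higher. Granule neuron markers were at 1654 to 2008 against 2313 to 2895 CPM, with 3 of 6 lower and none higher. Astrocyte and Bergmann glia markers were at 3835 to 5274 CPM in Atr, Bax and Bak deleted against 2566 to 3005 CPM in Bax and Bak deleted libraries, with 6 of 6 higher.

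Markers of GABAergic interneurons (5 of 5), Purkinje cells (5 of 6), microglia (5 of 6) and the oligodendrocyte lineage (4 of 6, with Pdgfra lower) were also higher in Atr, Bax and Bak deleted cerebella, as were 2 of 6 of endothelium and pericytes. None of the meningeal, choroid plexus or erythroid markers was called, although summed choroid plexus markers ranged from 27.7 to 2686 CPM in Atr, Bax and Bak deleted and from 61.1 to 3677 CPM in Bax and Bak deleted libraries. No marker was at 0 in any group. Math1-Cre acts in the granule lineage, and the part of the shift in cell types in the members' differences was not tested.

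The sample numbers in the titles fall into series, all 5 Atr, Bax and Bak deleted samples in 1836, and the controls in 100019 (replicates 1 and 2) and 1842 (replicates 3 and 4), so the series of a sample and its genotype cannot be told apart. Against either pair of controls alone, the same comparison called 12 mitochondrial genes, with a median log2 fold change of 0.79 for the first pair and 0.90 for the second. A fit over all 4 groups, which takes its spread from all of them, called none of the mitochondrial genes (8 at an unadjusted p below 0.05) and 2 nuclear ones in this comparison. Of all 18189 genes tested it called 3150 higher and 3052 lower. The same fit without Atr and p53 deleted replicate 2 called 11 mitochondrial genes, all of the 12 but mt-Atp8, and 12 nuclear ones. Of all 18135 genes tested there, 3543 were called higher and 3788 lower.

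In the p53 deleted background none of the members passed the test between Atr and p53 deleted and p53 deleted cerebella, among 17361 genes of which 0.0461% were called, all higher. Of the mitochondrial genes 1, mt-Atp6, and of the nuclear ones none had an unadjusted p below 0.05 with edgeR, and DESeq2 and limma-voom called none either. The mitochondrial share was 2.47, 9.01, 3.37 and 2.61% in Atr and p53 deleted libraries (replicates 1, 2, 4 and 5), against 3.23, 2.13 and 2.61% in p53 deleted libraries. Replicate 2 was far above all others, and the remaining 3 Atr and p53 deleted libraries overlapped the p53 deleted ones.

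The mitochondrial means of this comparison rested on replicate 2. mt-Co1 had 5660.1, 23955, 8223 and 6758 CPM in Atr and p53 deleted cerebella, against 9274, 6100.3 and 7181 CPM in p53 deleted cerebella. Its log2 fold change was 0.57 ± 0.51 with replicate 2 and -0.12 ± 0.19 without it (edgeR, Benjamini-Hochberg adjusted p = 0.859 and 0.916). mt-Nd1 was at 0.66 ± 0.51 with replicate 2 and -0.01 ± 0.21 without it. Over the 13 genes the log2 fold changes ran from 0.52 for mt-Cytb and mt-Nd4l to 1.88 for mt-Atp6 with replicate 2, and from -0.23 for mt-Nd4l to 1.18 for mt-Atp6 without it, where 0.0117% of all genes were called, all higher.

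mt-Atp6 had 2747, 10042, 3494 and 2277 CPM in Atr and p53 deleted cerebella, against 889.9, 1036 and 1853 CPM in p53 deleted cerebella, and was the only member whose groups did not overlap. Its copy Gm10925 took between 0.00229 and 16.8% of the summed counts in Atr and p53 deleted libraries, and between 29.0 and 76.0% in p53 deleted libraries. The sum of gene and copy was 2748, 10060.4, 3494 and 2738 CPM in Atr and p53 deleted libraries, against 3708, 2274 and 2611 CPM in p53 deleted libraries, which overlap. With the copies added and replicate 2 left out, mt-Atp6 was at 0.08 ± 0.19.

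The nuclear members had a median log2 fold change of 0.09 between Atr and p53 deleted and p53 deleted cerebella, and of -0.06 without replicate 2. Ndufc2, an accessory membrane subunit and the nuclear member of smallest p, had 119, 202, 129 and 99.7 CPM in Atr and p53 deleted cerebella and 130.0, 104 and 106 CPM in p53 deleted cerebella (0.28 ± 0.21; edgeR, Benjamini-Hochberg adjusted p = 0.845). Ndufa7, the next, had 69.9, 131, 70.9 and 67.6 CPM in Atr and p53 deleted and 71.4, 73.0 and 67.4 CPM in p53 deleted cerebella. In both genes the replicate 2 value was the highest and the other libraries overlapped. No gene of any pathway list or cell marker list passed in this comparison.

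**Figure D3:**
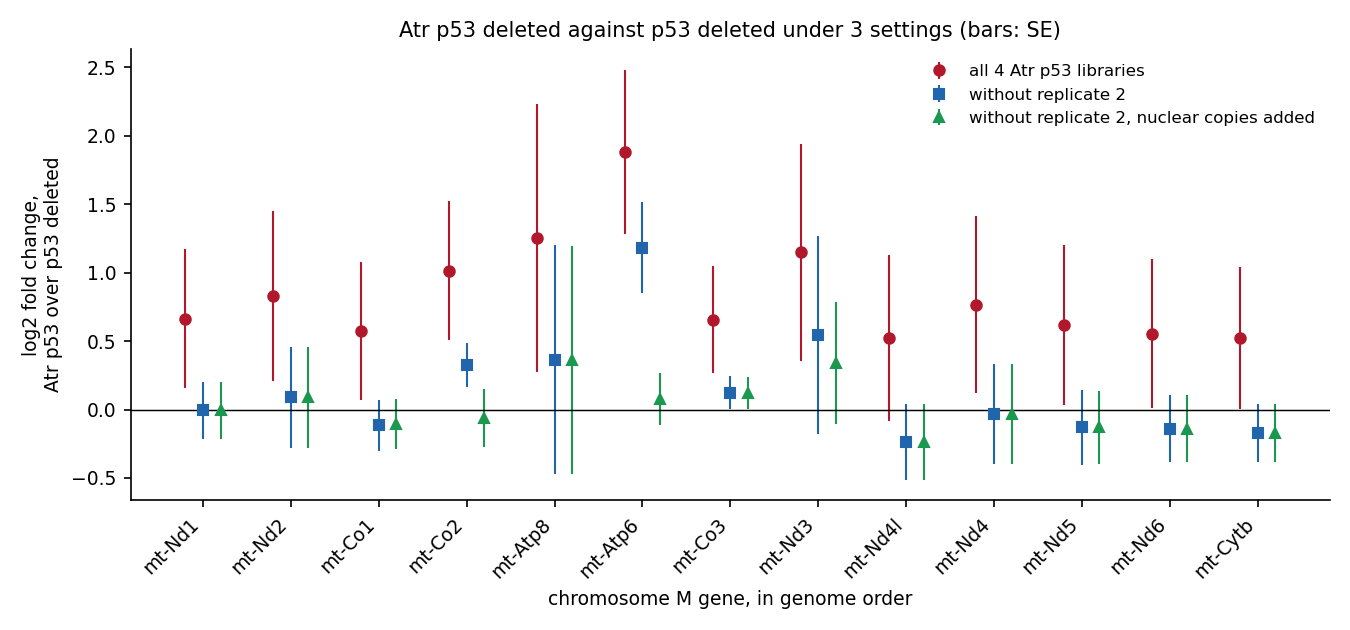
Log2 fold change (Atr and p53 deleted over p53 deleted, edgeR) of the 13 chromosome M genes in genome order with its SE, with all 4 deep Atr and p53 deleted libraries (red circles), without replicate 2 (blue squares), and without replicate 2 with the copies added (green triangles). The values lie between 0.52 and 1.88 with all libraries and between -0.23 and 1.18 without replicate 2, and mt-Atp6 lies at 0.08 once its copy is added.

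Replicate 2 differed from the other 3 Atr and p53 deleted libraries in both genomes. The 13 mitochondrial genes were higher in it by a median of 1.81 on the log2 scale, between 1.49 and 2.15. Nuclear members with transcripts under 1000 bases were higher by a median of 0.62 (28 genes) and longer ones by 0.23 (10 genes). The same gradient ran through all genes, with medians of 0.46 under 1000 bases (781 genes), 0.11 between 1000 and 2000, -0.03 between 2000 and 4000, and -0.09 from 4000 bases up (4368 genes). Transcript length moves with the nuclear members' difference, and its part in the result was not tested.

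**Figure D4:**
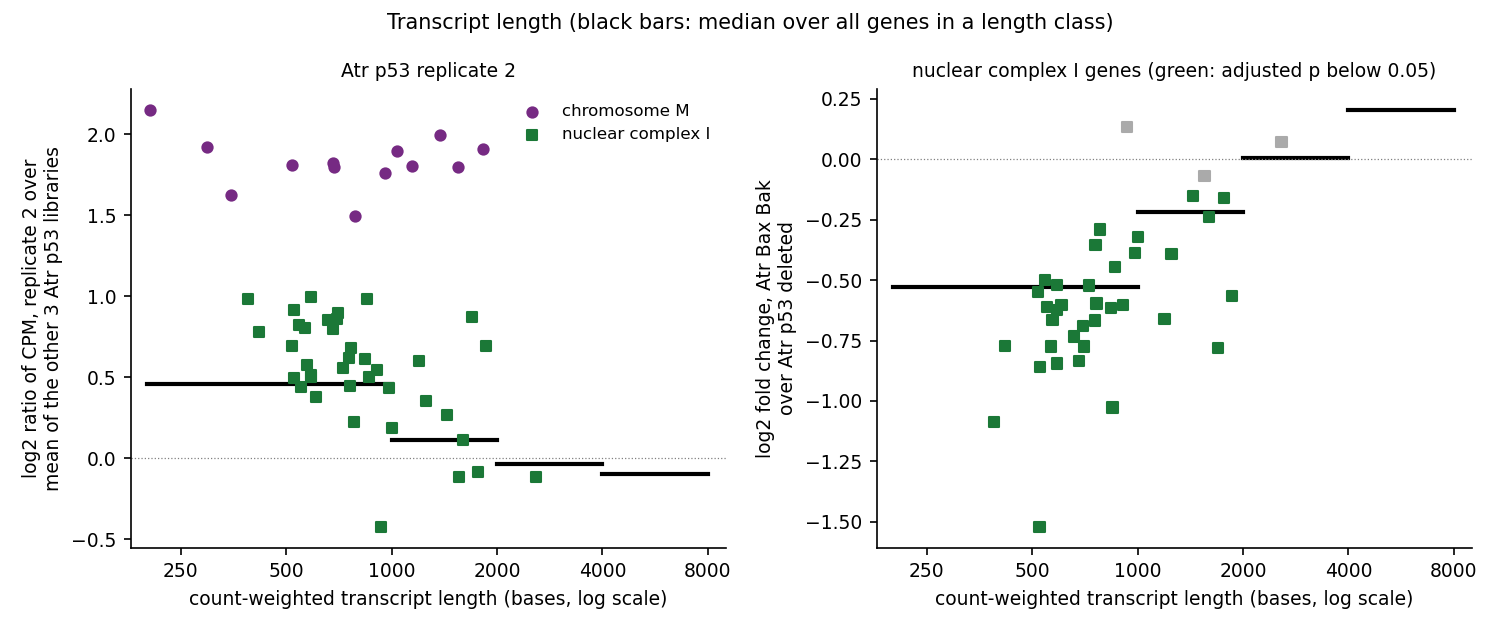
Left, log2 ratio of CPM in Atr and p53 deleted replicate 2 to the mean of the other 3 deep libraries of its group; right, log2 fold change of the nuclear members between Atr, Bax and Bak deleted and Atr and p53 deleted cerebella with all deep libraries, both against transcript length in bases (log axis), with black bars for the median of all genes in a length class. Nuclear members under 1000 bases have medians of 0.62 (left) and -0.62 (right), and longer ones of 0.23 and -0.28.

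The difference between the Atr comparisons of the 2 backgrounds was tested as an interaction, with the Bax and Bak background minus the p53 background. With all deep libraries none of the 51 members passed, against 16.1% of 18189 genes, 8.05% in each direction, and 3 nuclear ones, Ndufv2, Ndufb4 and Ndufb4c, had an unadjusted p below 0.05. Replicate 2 was singled out for its high mitochondrial level and stood apart in some nuclear members, so tests of members without it are not independent of that choice. Without replicate 2, where 19.6% of genes were called and 8.85% were higher, 6 mitochondrial genes passed and all were higher. They were mt-Nd4l (1.25 ± 0.29), mt-Nd5 (1.13 ± 0.29), mt-Nd6 (1.12 ± 0.27), mt-Cytb (1.04 ± 0.24), mt-Co1 (0.96 ± 0.21) and mt-Nd1 (0.82 ± 0.23), with edgeR adjusted p-values of 0.00658 for mt-Co1 to 0.0244 for mt-Nd1. None of the nuclear members passed without replicate 2. Ndufv2 was at -0.38 ± 0.16 with all deep libraries and at -0.21 without replicate 2.

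With the chromosome 1 copies added and replicate 2 left out, mt-Co2 (0.90 ± 0.24) and mt-Atp6 (0.70 ± 0.22) passed as well, and 8 mitochondrial genes were called. mt-Nd3 had an interaction of -0.27 ± 0.39 in that fit (adjusted p = 0.686). Among the other lists, with all deep libraries, 5 of 20 glycolysis genes were higher and none lower in the interaction, and 12 of 78 mitochondrial ribosome genes were lower and none higher. Without replicate 2 these counts were 5 and 13. Markers of GABAergic interneurons were higher in 5 of 5, with and without replicate 2. Astrocyte and Bergmann glia markers were higher in 4 of 6 with it and 5 of 6 without it, as were oligodendrocyte lineage markers. Higher too were 2 of 6 Purkinje cell markers in both fits, and 2 and 3 of 6 microglia markers. Granule progenitor markers were lower in 2 of 6 with it and 3 of 6 without it. With all deep libraries, nuclear members under 1000 bases had a median interaction of -0.25, and all genes of that length -0.24. The parts of cell types and transcript length in the result were not tested. Each background is a deposited table of its own with its own sample numbers, so background and table cannot be told apart in the interaction or in the comparisons that follow.

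All nuclear members called between the backgrounds were lower in the Bax and Bak deleted than in the p53 deleted background, both among the Atr deleted samples and among the controls. The groups did not overlap, with the Bax and Bak deleted background lower, in 33 nuclear members among Atr deleted samples and in 35 among controls. This was counted for the members only, so the share of all genes without overlap is not known. Whether the background difference itself differs between Atr deleted samples and controls is what the interaction tests, and no nuclear member passed there with all deep libraries. Among Atr deleted samples, 35 of 38 nuclear members were lower in Atr, Bax and Bak deleted than in Atr and p53 deleted cerebella, against 22.8% of all tested genes (47.1% in either direction), with a median log2 fold change of -0.60 beside 0.03 over all genes. All 28 accessory subunits were lower, and 5 of 7 core subunits; Ndufs1, Ndufv1, the subunit that binds NADH, and Ndufa4l2 did not pass. Without replicate 2 the count was 34 and the median -0.43. Among control samples 15 of 38 were lower in Bax and Bak deleted than in p53 deleted cerebella, against 9.32% of all tested genes, with a median of -0.33. That count was 34 in the fit without replicate 2, whose own values do not enter the control means, and 13.6% of all genes were lower in that fit. It was 9, 7 and 6 without replicates 1, 2 and 3 of the Bax and Bak deleted group, where 6.19 to 7.45% of all genes were lower. It was 5, 9 and 6 without replicates 1, 2 and 3 of the p53 deleted group, where 5.57 to 6.05% of all genes were lower.

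Ndufa12, an accessory subunit at the matrix arm, had 84.0, 86.4, 88.7, 82.2 and 77.8 CPM in Atr, Bax and Bak deleted cerebella, against 118, 154, 129.9 and 108 CPM in Atr and p53 deleted cerebella. Among the controls it had 82.8, 87.0, 81.4 and 96.9 CPM in Bax and Bak deleted cerebella, against 121, 119.8 and 115 CPM in p53 deleted cerebella. Neither pair of groups overlapped, and the log2 fold changes were -0.60 ± 0.08 and -0.45 ± 0.09 (edgeR, Benjamini-Hochberg adjusted p = 2.09e-05 and 0.00481). Without replicate 2 the difference among Atr deleted samples was -0.50. Ndufs3, a core subunit, had 71.9, 75.5, 76.0, 73.6 and 74.4 CPM in Atr, Bax and Bak deleted cerebella and 94.3, 102, 88.8 and 86.1 CPM in Atr and p53 deleted cerebella. In the controls it had 74.2, 75.4, 73.0 and 80.2 CPM in Bax and Bak deleted and 94.8, 93.1 and 92.7 CPM in p53 deleted cerebella. It was likewise apart, at -0.32 ± 0.05 among Atr deleted samples (-0.27 without replicate 2) and -0.31 ± 0.06 among controls.

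Further genes of smallest p among the Atr deleted samples were Ndufc1 (-0.61 ± 0.09), Ndufb11 (-0.60 ± 0.09) and Ndufb4c (-1.09 ± 0.17), which were at -0.49, -0.44 and -0.77 without replicate 2, and among the controls Ndufs7 (-0.32 ± 0.08) and Ndufa5 (-0.48 ± 0.11). Ndufa4 was at -0.85 ± 0.17 among Atr deleted samples and at -0.43 ± 0.19 among controls, where it did not pass. Without replicate 2 it was at -0.53 ± 0.06 and -0.43 ± 0.07 and passed in both. In both comparisons the values varied with transcript length. Among Atr deleted samples, the medians of nuclear members were -0.62 under 1000 bases and -0.28 above, and those of all genes -0.53 under 1000 bases and 0.20 from 4000 bases up. Without replicate 2 they were -0.47 and -0.24 for the members and -0.40 and 0.19 for all genes. Among controls the members were at -0.40 and -0.23, and all genes at -0.30 and 0.14. Cell type markers also differed between Atr, Bax and Bak deleted and Atr and p53 deleted cerebella. In the former, 6 of 6 astrocyte and Bergmann glia and 5 of 5 GABAergic interneuron markers were higher. Of Purkinje cell and of oligodendrocyte lineage markers 4 of 6 were higher and none lower. Of granule progenitor markers 3 of 6 were lower and none higher, and 5 of 6 were lower without replicate 2. The parts of transcript length and cell types in the members' differences were not tested. In the other lists, 11 of 11 complex IV genes, 14 of 16 ATP synthase genes and 72 of 78 mitochondrial ribosome genes were lower among Atr deleted samples, and 4 of 11, 7 of 16 and 31 of 78 were lower among controls. Without replicate 2 the counts were 11, 15 and 70 among Atr deleted samples and 11, 12 and 48 among controls.

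The largest value among the nuclear members was that of Ndufs5, a small accessory subunit of the intermembrane side. It had 19.2, 35.5, 20.7, 35.4 and 19.0 CPM in Atr, Bax and Bak deleted cerebella and 68.2, 95.3, 66.6 and 68.1 CPM in Atr and p53 deleted cerebella (-1.52 ± 0.29, and -1.38 ± 0.32 without replicate 2). Its copy BC002163 took 23.1 to 53.2% of the pair's counts in Atr, Bax and Bak deleted libraries, and 24.1 to 55.3% in Bax and Bak deleted libraries. In Atr and p53 deleted libraries the copy took at most 0.0403%, and in p53 deleted libraries at most 20.8%. The sums of gene and copy still did not overlap, at 39.7 to 47.4 CPM in Atr, Bax and Bak deleted and 66.6 to 95.3 CPM in Atr and p53 deleted libraries.

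Of the mitochondrial genes, mt-Nd3 alone passed between the backgrounds with all deep libraries, where 24.3% of genes were higher in Atr, Bax and Bak deleted than in Atr and p53 deleted cerebella and 8.71% were higher in Bax and Bak deleted than in p53 deleted cerebella. Its log2 fold change was 1.72 ± 0.49 among Atr deleted samples and 2.76 ± 0.58 among controls (edgeR, Benjamini-Hochberg adjusted p = 0.0106 and 0.00739), and 2.32 ± 0.46 among Atr deleted samples without replicate 2. In Atr and p53 deleted libraries it had 66.6, 295, 178 and 41.8 CPM, and in p53 deleted libraries 101, 61.9 and 34.4 CPM, all below the 363 to 556 CPM of the other groups. The copy Gm28438 took 69.0 to 83.4% of the pair's counts in Atr and p53 deleted libraries and 73.2 to 85.8% in p53 deleted libraries. In Atr, Bax and Bak deleted libraries it took at most 0.00254%, and in Bax and Bak deleted libraries between 0.00945 and 13.0%.

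Summed with its copy, mt-Nd3 had 401 to 556 CPM in Atr, Bax and Bak deleted and 252 to 1414 CPM in Atr and p53 deleted libraries, and 417 to 516 CPM in Bax and Bak deleted and 231 to 495 CPM in p53 deleted libraries. The groups then overlapped, and the log2 fold changes were -0.46 ± 0.39 among Atr deleted samples and 0.51 ± 0.46 among controls, neither of which passed. Without replicate 2 the sum was at 0.24 ± 0.27 among Atr deleted samples, which did not pass either. In mt-Co2 the split set the p53 deleted libraries apart. Its copy Gm28661 took at most 0.442% of the pair's counts in Atr, Bax and Bak deleted and at most 0.426% in Bax and Bak deleted libraries, and it took 0.00858 to 9.53% in Atr and p53 deleted and 10.5 to 42.0% in p53 deleted libraries. In mt-Co1 the copy took similar shares everywhere, 13.0 to 13.7% in Atr, Bax and Bak deleted, 10.4 to 13.4% in Bax and Bak deleted, 12.3 to 13.3% in Atr and p53 deleted and 11.7 to 12.9% in p53 deleted libraries.

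**Figure D5:**
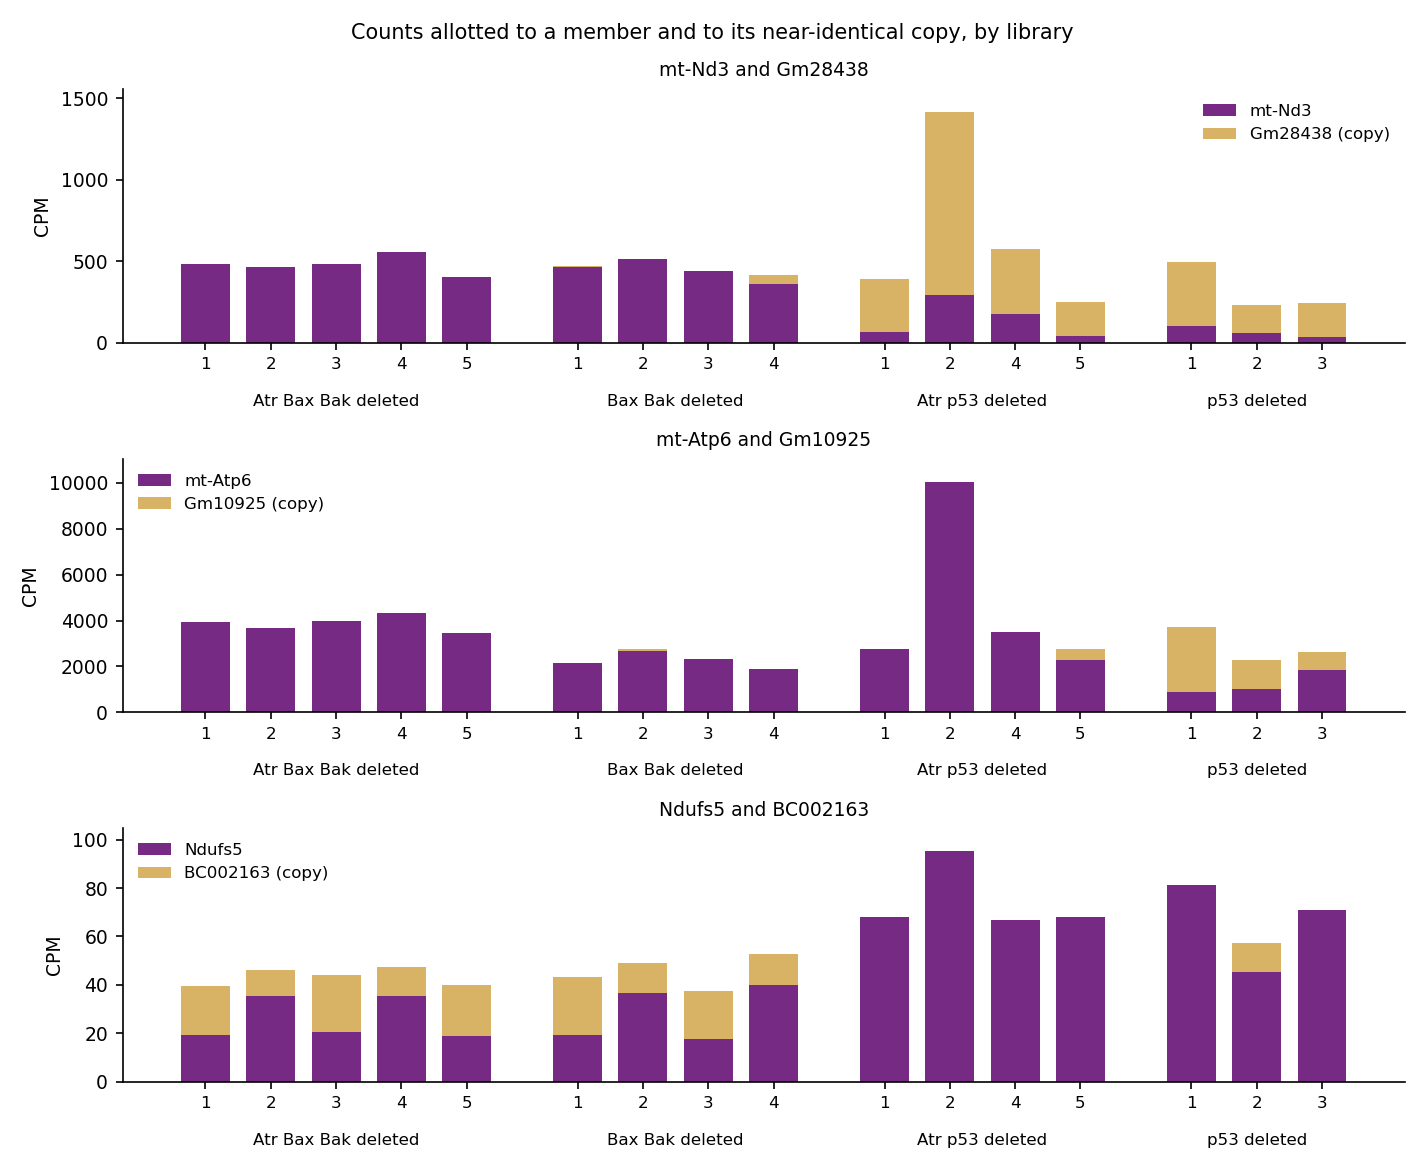
CPM allotted to mt-Nd3, mt-Atp6 and Ndufs5 (purple) and, stacked on top, to their near-identical copies Gm28438, Gm10925 and BC002163 (yellow), in each deep library by replicate number. The copy takes 69.0 to 85.8% of the mt-Nd3 pair in the p53 backgrounds and at most 13.0% in the Bax and Bak backgrounds.

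The mitochondrial calls that follow again depend on leaving out a library singled out for its mitochondrial level. Without replicate 2, 7 mitochondrial genes were higher in Atr, Bax and Bak deleted than in Atr and p53 deleted cerebella, where 24.3% of all genes were called higher. Besides mt-Nd3 they included mt-Nd4l (0.76 ± 0.21), mt-Nd4 (0.75 ± 0.25), mt-Nd5 (0.70 ± 0.20) and mt-Cytb (0.51 ± 0.17). Among controls, that fit called 25.9% of all genes, and 6 mitochondrial genes between Bax and Bak deleted and p53 deleted cerebella. mt-Nd3 and mt-Atp6 were higher, and mt-Nd6 (-0.68 ± 0.20), mt-Co1 (-0.54 ± 0.15), mt-Cytb (-0.53 ± 0.17) and mt-Co3 (-0.36 ± 0.11) were lower. With the copies added as well, mt-Nd3 and mt-Atp6 no longer passed, mt-Co2 did at -0.49 ± 0.17, and all 5 genes called were lower in Bax and Bak deleted cerebella.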

How the data were processed

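The authors deposited estimated counts per transcript and sequencing lane, 1 table for each background, with no normalization stated; the submitters' processing notes name kallisto 0.42.4, edgeR, mm9 and GRCm38, whose roles are not given. The 2 lanes of each of the 17 samples were added, transcript values were added up per gene with the GENCODE M21 annotation (92372 of 94080 matched; 0.746 to 1.01% of counts unmatched in deep libraries), and sums were rounded to whole numbers. Atr and p53 deleted replicate 3, whose lanes are identical, was left out.

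Each Atr comparison was fitted on its own background, and the interaction and both background comparisons on all 4 groups, with edgeR 4.0.16 (R 4.3.3): TMM scaling, expression filter by group, robust quasi-likelihood fit and F-test, Benjamini-Hochberg adjustment over all genes, threshold 0.05. CPM are counts scaled to TMM-adjusted library size. TPM are counts divided by transcript length and scaled to the same total in every library, without TMM. SE was derived from the fold change and its F statistic. Copies are genes sharing over 50% of their 31-base words with a member. The fits with copies added took in only the chromosome 1 copies of mitochondrial genes, so Ndufs5 and BC002163 stayed apart in them. The fits were tested on simulated data. Alternatives were DESeq2 1.42.0, limma-voom 3.58.1, other scalings and filters, copies added, and libraries left out. Tables and figures used Python 3.11.15 with pandas 2.3.3, numpy 2.4.6, matplotlib 3.10.9, biopython 1.88 and scipy 1.17.1.

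Members and lists were chosen with earlier results of these data known. Text names all mitochondrial genes, up to 4 nuclear members of smallest p per direction (2 where none passed), Ndufa4, Ndufa4l2, and per list the gene of smallest p in each direction; others, such as Ndufs4, Ndufs5 and Ndufs1, were named after their values were seen. The values of 1 nuclear member, which is in all counts and medians, are not reported here.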

Additional observations from a re-analysis of the deposited data

Results flagged for a closer look

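A library was marked where its gap to the nearest other library of its group was too large a part of the group's range (Dixon's criterion at 95%). Chance marks about 1 in 20 groups, and 87 groups of 4 to 10 libraries were examined. All marks of this kind fell on Atr and p53 deleted replicate 2, and these values share 1 library. It held 9.01% of gene counts in the mitochondrial genes and 0.442% in the nuclear members. Its counts were 8242 CPM for mt-Nd1, 23955 CPM for mt-Co1, 9999 CPM for mt-Co2, 10042 CPM for mt-Atp6, 12931 CPM for mt-Co3 and 9006 CPM for mt-Cytb. Among nuclear members it had 450.0 CPM of Ndufa4, 156 CPM of Ndufb11, 131 CPM of Ndufa7, 113 CPM of Ndufb4c, 55.3 CPM of Ndufc1 and 38.5 CPM of Ndufb4.

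The shallow library, Atr and p53 deleted replicate 3, entered no comparison. It held 277 mitochondrial counts of 13439 gene counts, 2.06% (exact 95% interval 1.83 to 2.32%, counting error only). With the nuclear copies added its share was 3.20%, within the 2.59 to 9.43% of the deep libraries of its group, which held 2.47 to 9.01% without them. In it 3 counts correspond to 223 CPM, so single nuclear members cannot be read there.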

How the results depend on the processing

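The 12 mitochondrial calls between Atr, Bax and Bak deleted and Bax and Bak deleted cerebella stood at 12 under all other scalings, filters and tools and with any library left out, and the nuclear count was 8 to 14 with any library left out. In a fit over all 4 groups the counts were 0 and 2, where 3150 of 18189 genes were called higher and 3052 lower. Leaving out Atr and p53 deleted replicate 2 as well gave 11 and 12, where 3543 of 18135 genes were called higher and 3788 lower. The difference in mitochondrial share between these groups, 1.72 percentage points, was 4.27 on counts per kilobase and 1.29 without mt-Co1, and the median log2 CPM differed by 0.90. mt-Nd3 was at -0.024 against controls of the 100019 series only. No paired analysis was possible because the labels give no replicate numbers shared between groups, and the numbers used here only follow accession order. Settings that combine the copies or the 4-group fit with leaving out replicate 2 were chosen after seeing the data. The cause of the changes below was not tested.

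With the copies added and replicate 2 left out, the mitochondrial calls were 8 for the interaction, 5 among Atr deleted samples and 5 among controls, and the nuclear calls among controls were 34; with the copies added alone, the mitochondrial calls were 0 among Atr deleted samples and 0 among controls. With any 1 library left out they were 0 to 6 for the interaction, 1 to 7 among Atr deleted samples and 1 to 6 among controls, and nuclear calls were 0 to 1 for the interaction (Ndufv2, without Atr and p53 deleted replicate 5) and 5 to 34 among controls. The highest mitochondrial counts came without replicate 2.

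Of the values that turned sign, all but that of mt-Nd3 among Atr deleted samples had not passed before they turned. Some passed afterwards. Among Atr deleted samples without replicate 2 these were mt-Co1, mt-Co2, mt-Nd4, mt-Nd5, mt-Cytb and mt-Nd4l, and all but mt-Co2 also passed with the copies added. In the interaction with the copies added and replicate 2 left out, mt-Co2 and mt-Atp6 passed. Between Atr and p53 deleted and p53 deleted cerebella, Ndufa4l2 was at 0.031 within the 1843 series. With the copies added and replicate 2 left out, mt-Nd1 was at -0.0061, mt-Co1 at -0.11, mt-Co2 at -0.061, mt-Nd4 at -0.032, mt-Nd5 at -0.13, mt-Nd6 at -0.14, mt-Cytb at -0.17, mt-Nd4l at -0.23, Ndufa7 at -0.011, Ndufa4 at -0.16 and Ndufa4l2 at 0.0091. In the 4-group fit without replicate 2, mt-Nd1 was at -0.018, mt-Co1 at -0.13, mt-Nd4 at -0.044, mt-Nd5 at -0.14, mt-Nd6 at -0.15, mt-Cytb at -0.18, mt-Nd4l at -0.25, Ndufa7 at -0.023 and Ndufa4 at -0.17. With any 1 library left out, the ranges were -0.0061 to 0.88 for mt-Nd1, -0.12 to 0.79 for mt-Co1, -0.032 to 1.07 for mt-Nd4, -0.13 to 0.86 for mt-Nd5, -0.14 to 0.78 for mt-Nd6, -0.17 to 0.75 for mt-Cytb, -0.23 to 0.77 for mt-Nd4l, -0.011 to 0.37 for Ndufa7, -0.16 to 0.26 for Ndufa4 and -0.21 to 0.0092 for Ndufa4l2.

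For the interaction, limma-voom gave 0.21 for mt-Nd2 and 0.064 for mt-Co2, and keeping the shallow library gave 0.071 for mt-Nd2, 0.043 for mt-Co2 and 0.078 for mt-Co3. Adding the copies gave 0.22 for mt-Co2 and 0.033 for mt-Atp6, and leaving out replicate 2 as well gave 0.70 for mt-Nd2, 0.90 for mt-Co2, 0.53 for mt-Atp8, 0.70 for mt-Atp6 and 0.38 for mt-Co3. With any 1 library left out, the ranges were -0.084 to 0.82 for mt-Nd1, -0.40 to 0.70 for mt-Nd2, -0.40 to 0.51 for mt-Co2, -1.27 to 0.53 for mt-Atp8, -0.33 to 0.38 for mt-Co3 and -0.13 to 0.98 for mt-Nd4.

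Among Atr deleted samples, limma-voom gave 0.0070 for mt-Co2, 0.33 for mt-Atp8, 0.0067 for mt-Atp6, 0.30 for mt-Nd4, 0.25 for mt-Nd5, 0.0072 for mt-Nd6, 0.062 for mt-Cytb and 0.29 for mt-Nd4l. Keeping the shallow library gave 0.086 for mt-Nd4, 0.042 for mt-Nd5 and 0.033 for mt-Nd4l, and adding the copies gave -0.46 for mt-Nd3. With the copies added and replicate 2 left out, mt-Nd1 was at 0.38, mt-Nd2 at 0.42, mt-Co1 at 0.42, mt-Co2 at 0.41, mt-Atp8 at 0.75, mt-Atp6 at 0.38, mt-Co3 at 0.014, mt-Nd4 at 0.75, mt-Nd5 at 0.70, mt-Nd6 at 0.44, mt-Cytb at 0.51 and mt-Nd4l at 0.76. With any 1 library left out, the ranges were -0.50 to 0.38 for mt-Nd1, -0.56 to 0.42 for mt-Nd2, -0.50 to 0.42 for mt-Co1, -0.45 to 0.45 for mt-Co2, -0.46 to 0.75 for mt-Atp8, -0.48 to 0.45 for mt-Atp6, -0.67 to 0.016 for mt-Co3, -0.30 to 0.75 for mt-Nd4, -0.30 to 0.70 for mt-Nd5, -0.48 to 0.44 for mt-Nd6, -0.42 to 0.51 for mt-Cytb and -0.25 to 0.76 for mt-Nd4l. Among controls, mt-Atp6 was at -0.33 with the copies added, with or without replicate 2, and with any 1 library left out the ranges were -0.48 to 0.075 for mt-Nd2, -0.17 to 0.052 for mt-Co2, -0.19 to 1.12 for mt-Atp8 and -0.42 to 0.076 for mt-Nd4. Within each group, no pair of deep libraries agreed within counting noise (chi-square of 17.3 to 330 a degree of freedom, on genes with at least 10 counts).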
